A study of Homo sapiens with 18 samples.

Results

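Azurophil granules are the granules that neutrophil precursors lay down at the promyelocyte stage, and 10 genes that encode their best known proteins are described here: MPO, ELANE, PRTN3, AZU1, CTSG, BPI, CFD, DEFA1, DEFA3 and DEFA4. They were chosen by name, and all 10 were matched by symbol among the 35168 gene identifiers of the count tables. RNA had been sequenced in H1 human embryonic stem cells (hESCs) and in blood cells grown from them. The 6 groups were wild-type (WT) and USB1 mutant cells at day 0 (D0, undifferentiated hESCs), day 16 (D16, hematopoietic progenitors, described in the study as CD34+/CD45+) and day 30 (D30, mature blood cells) of a serum-free hematopoietic differentiation, each with 3 libraries of 4125125 to 19368927 counts. The mutant cells carry a frameshift deletion in USB1, the gene of an RNA exonuclease that is mutated in poikiloderma with neutropenia, introduced by CRISPR/Cas9 into the same H1 line from picked colonies; how many colonies gave the libraries is not stated. The WT cells are the parental line and carry no edit that the labels name. Whether the members differed between the genotypes, and on which day, is the question the design poses for them.

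The azurophil granule is made in a short window. Promyelocytes transcribe its genes strongly and shut them down as the cell matures, so that a mature neutrophil carries much of the protein and little of the mRNA. Several kinds of protein are among the members: myeloperoxidase, which makes hypochlorous acid; serine proteases of the chymotrypsin family and their inactive relative azurocidin; the lipopolysaccharide-binding protein BPI; and the alpha-defensins, small membrane-piercing peptides. Inherited changes in ELANE, the neutrophil elastase gene, are a known cause of severe congenital neutropenia. MPO is also transcribed in monocyte precursors and CTSG in mast cells, so their RNA in a mixed culture does not mark 1 cell type. Whether the other members are transcribed in further blood cell types was not examined here, and they are not taken as markers of neutrophils alone.

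The genes lie in few places (GRCh38). ELANE (chromosome 19, 851014 to 856247), PRTN3 (840999 to 848175), AZU1 (825097 to 832018) and CFD (859453 to 867884) form 1 cluster of genes on the plus strand. DEFA1, DEFA3 and DEFA4 lie together on chromosome 8, where DEFA1 and DEFA3 are near-identical copies, so the split of reads between them is uncertain and their sum with the copy DEFA1B is given as well. MPO is on chromosome 17 (58269855 to 58280935, minus strand), CTSG on chromosome 14 (24573518 to 24576250, minus strand) and BPI on chromosome 20 (38304150 to 38337505, plus strand). CFD overlaps MED16 on the opposite strand, and BPI overlaps 2 long noncoding RNA genes that are not in the tables.

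The USB1 transcript itself, which still carries the frameshift, does not check the labels: it lay at 73.9 to 85.2 CPM in WT and 84.0 to 89.0 CPM in mutant cells at D0 and its log2 fold change had an adjusted p of 0.623, 0.668 and 0.432 at D0, D16 and D30.

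Promoter windows were at hand for 4 members, from RefSeq on GRCh38.p14, each with 250 bases before and 50 bases after the annotated start, 5′ to 3′ on the gene's strand. All 4 are shown, PRTN3, AZU1 and CFD of the chromosome 19 cluster and CTSG, and none was picked by its result. Capitals mark matches, on either strand, to short cores of the factors that are known to drive these genes: GAGGAA for PU.1, TTNNGNAA for C/EBP, TGNGGT for RUNX and CNGTTG for MYB. The letters were picked with the sequences in view. 
PRTN3 (chr19:840749-841048, plus strand): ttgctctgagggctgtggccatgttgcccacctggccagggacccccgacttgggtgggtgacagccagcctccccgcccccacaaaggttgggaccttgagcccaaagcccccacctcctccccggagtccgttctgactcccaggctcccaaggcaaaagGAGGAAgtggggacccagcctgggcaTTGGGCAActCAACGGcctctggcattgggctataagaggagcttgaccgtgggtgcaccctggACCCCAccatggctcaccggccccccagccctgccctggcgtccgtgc
AZU1 (chr19:827587-827886, plus strand): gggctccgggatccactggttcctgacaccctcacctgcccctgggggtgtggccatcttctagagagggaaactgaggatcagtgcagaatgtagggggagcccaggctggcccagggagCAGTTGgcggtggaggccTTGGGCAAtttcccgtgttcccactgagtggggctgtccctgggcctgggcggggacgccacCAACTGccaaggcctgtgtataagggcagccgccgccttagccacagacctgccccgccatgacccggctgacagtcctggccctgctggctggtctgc
CFD (chr19:859414-859713, plus strand): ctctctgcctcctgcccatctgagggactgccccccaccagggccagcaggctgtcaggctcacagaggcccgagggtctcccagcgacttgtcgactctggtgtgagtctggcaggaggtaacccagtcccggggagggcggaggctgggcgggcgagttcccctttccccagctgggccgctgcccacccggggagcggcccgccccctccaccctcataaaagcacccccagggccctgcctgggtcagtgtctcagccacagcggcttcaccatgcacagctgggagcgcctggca
CTSG (chr14:24576201-24576500, minus strand): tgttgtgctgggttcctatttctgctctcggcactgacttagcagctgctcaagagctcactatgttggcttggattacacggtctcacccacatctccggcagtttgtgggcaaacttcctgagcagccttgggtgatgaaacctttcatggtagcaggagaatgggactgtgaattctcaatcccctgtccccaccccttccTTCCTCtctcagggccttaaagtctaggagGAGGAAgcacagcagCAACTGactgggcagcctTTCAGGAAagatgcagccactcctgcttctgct
The PRTN3 window held 1 match to each of the 4 cores, and the PU.1 and C/EBP matches began 88 and 62 bases before the start. The AZU1 window held 1 C/EBP and 2 MYB matches, the CTSG window 2 PU.1, 1 C/EBP and 1 MYB match, and the CFD window 0 matches to any of the 4. Such letters are common: of 27305 RefSeq windows of 300 bases, 27.6% held the PU.1 core, 37.2% the C/EBP core, 43.2% the RUNX core and 33.2% the MYB core. A match describes the letters and not a bound site, and the absence of one says nothing about the factor.

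Undifferentiated hESCs carried almost none of these transcripts, and hematopoietic progenitors carried much. Levels are given in CPM (counts scaled to library size, by TMM over all 18 libraries) for 1 gene across libraries, and in TPM (transcript abundance, which allows for length) for different genes. The TPM of the 10 genes summed to 7.54 ± 1.94 in WT and 10.2 ± 1.72 in mutant cells at D0 (mean ± SD, n = 3 in every group). At D16 the sum was 5067 ± 2006 TPM in WT (3294 to 7244) and 2408 ± 558 TPM in mutant progenitors (1811 to 2917), and the genotypes did not overlap. The sum in CPM, in which MPO weighs more, did overlap, with 4364 CPM in the lowest WT library and 4582 CPM in the highest mutant one. At D30 it was 720 ± 325 TPM in WT (408 to 1056) and 255 ± 181 TPM in mutant cells (73.2 to 434), with an overlap of the highest mutant and the lowest WT library. The mutant mean was thus 0.475 of the WT mean at D16 and 0.354 at D30. No test was made of these sums, since an exact permutation test of 3 against 3 libraries cannot go below 0.1.

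**Figure D1:**
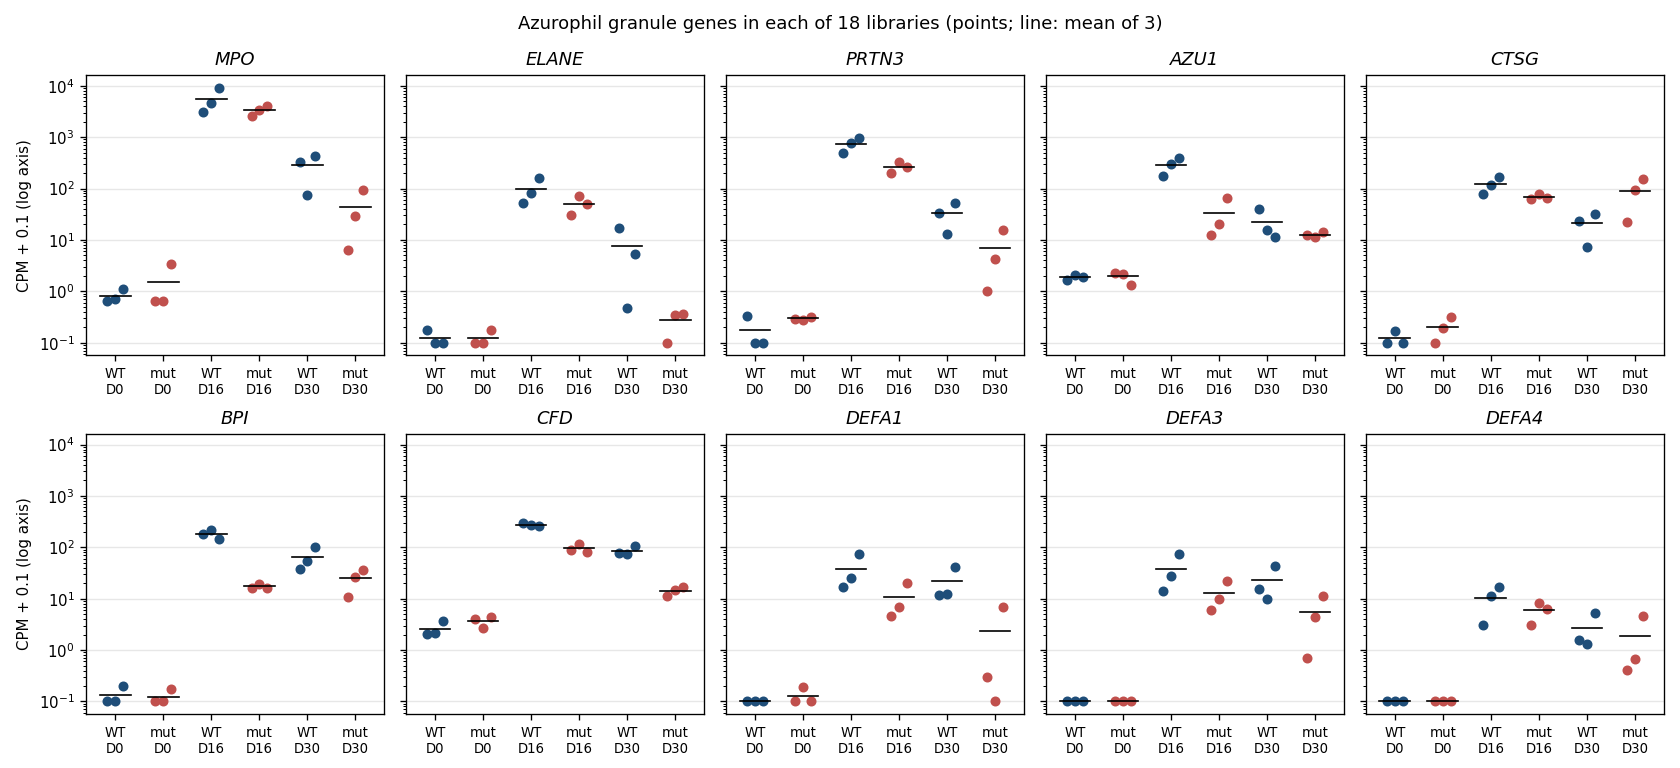
CPM + 0.1 on a log axis for each of the 10 genes in each of 18 libraries, WT in blue and USB1 mutant in red, with the mean of each group as a line. The genes are near 0 at D0 and most are highest at D16 and lower at D30; in mutant cells the D30 ranges of CTSG (21.8 to 155 CPM) and BPI (10.8 to 36.5 CPM) span those of D16.

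In WT progenitors at D16 the 10 genes spanned a wide range of levels. MPO was the highest at 2185 TPM, followed by PRTN3, the protease known as the autoantigen of granulomatosis with polyangiitis, at 1161 TPM. AZU1 (446 TPM), CFD (348), CTSG (209), DEFA1 (193), DEFA3 (186), ELANE (169), BPI (134) and DEFA4 (36.2 TPM) came next in order. Among neighbours in this order, the ranges over libraries were apart for PRTN3 over AZU1, CFD over CTSG and BPI over DEFA4, and overlapped for the other pairs. In mutant progenitors MPO (1413 TPM), PRTN3 (438 TPM) and CTSG (127 TPM) had ranges apart in that order. BPI was the lowest there, at 13.5 TPM, behind DEFA4 at 22.0 TPM, with overlapping ranges.

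At D0 the genotypes could be compared for 2 members alone, AZU1 and CFD, because the other 8 had too few counts. Neither was called, against 2.93% of all genes called at D0. CFD lay at 2.48 ± 0.89 CPM in WT and 3.59 ± 0.92 CPM in mutant hESCs (log2 fold change 0.56 ± 0.31, padj = 0.453), and AZU1 at 1.77 ± 0.23 and 1.85 ± 0.52 CPM (0.05 ± 0.31, padj = 0.968). Here and below, a log2 fold change is mutant over WT ± its standard error. That error was back-calculated from the test, as the size of the log2 fold change over the square root of F. The value padj is the p of the quasi-likelihood F test of edgeR after Benjamini-Hochberg adjustment over every gene tested. A gene is called where padj is under 0.1. The defensins had 0 to 1 counts in any D0 library, which allows up to 3 counts over a group whose libraries are all at 0.

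At D16 all 10 members could be tested, and 8 were lower in mutant progenitors while 0 were higher. In all, 15.3% of the 14528 genes tested were called lower and 13.1% higher on that day. The median log2 fold change of the 10 members was -1.56, and that of all genes was 0.01. The genotypes did not overlap for 4 members (PRTN3, AZU1, BPI and CFD), as for 38.5% of all genes tested. MPO and DEFA4 were the members not called. No label pairs the libraries, but same-numbered replicates tended to deviate together at D16, with correlations of 0.119 to 0.434. Pairs of unlike number had -0.356 to 0.126. Deviations were taken from the mean of the same 3 libraries, so high values in like pairs push those of unlike pairs down. WT replicate 2 with mutant replicate 1 (0.126) also lay above WT replicate 1 with mutant replicate 1 (0.119). The pairing is therefore at most a hint from the data. The fit was also made with the replicate number as a block. MPO (padj = 0.00965) and DEFA4 (padj = 0.0353) were then called as well, giving 10 of 10 lower. The share of all genes called lower in that fit is not given here, and 15.3% is not its background.

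BPI, which binds the endotoxin of Gram-negative bacteria, was well separated between the genotypes at D16. It was at 181, 218 and 145 CPM in the WT libraries and at 15.8, 19.6 and 16.4 CPM in the mutant libraries. The lowest WT library was thus far above the highest mutant library, and the fitted level was 10.8-fold lower (log2 fold change -3.44 ± 0.18, padj = 1.28e-05). It was called under every alternative tried, with log2 fold changes from -3.58 to -3.29.

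Of the serine proteases and the inactive relative AZU1, PRTN3, CFD and AZU1 were separated between the genotypes, and ELANE and CTSG were not. PRTN3 was at 501, 765 and 968 CPM in WT and 204, 329 and 260 CPM in mutant progenitors (log2 fold change -1.53 ± 0.24, padj = 0.00175). CFD, the complement protease factor D, was at 296, 271 and 261 CPM in WT and 87.5, 118 and 79.4 CPM in mutant progenitors (-1.58 ± 0.16, padj = 0.000255). These 2 genes fell by nearly the same factor, 2.89-fold and 2.99-fold, and the WT libraries of CFD lay closer together than those of any other member. ELANE was at 52.3, 83.0 and 159 CPM in WT and 30.6, 70.0 and 50.1 CPM in mutant progenitors (-1.0 ± 0.36, padj = 0.0750), so that the lowest WT library lay below the highest mutant one. CTSG, encoding cathepsin G, was at 78.7, 116 and 167 CPM in WT and 61.5, 78.9 and 65.3 CPM in mutant progenitors (-0.85 ± 0.22, padj = 0.0224), with an overlap of 1 library on each side. ELANE was not called in 7 alternatives at the same threshold (padj up to 0.268) and CTSG in 2, the fit over 18 libraries (0.269) and the fit without mutant replicate 1 (0.110).

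AZU1 fell 8.85-fold at D16, but its values were uneven. It was at 172, 300 and 384 CPM in WT and at 12.2, 20 and 66.5 CPM in mutant progenitors (log2 fold change -3.15 ± 0.52, padj = 0.00256). The tables also give the mean effective length of each gene's transcripts, which was 681 to 733 bases for AZU1 in WT progenitors and 680 bases in mutant replicate 3, but 1425 and 1440 bases in mutant replicates 1 and 2, which have the lowest AZU1 levels. GENCODE lists 2 AZU1 transcripts, AZU1-201 of 907 bases in 5 exons starting at 827837, and AZU1-202 of 1713 bases in 4 exons starting at 825097. At D30 the length was 772, 873 and 1456 bases in WT and 1393, 1187 and 1014 bases in mutant cells, and at D0 it was 1263 to 1434 bases. Libraries with little AZU1 thus had lengths from 873 to 1456 bases, and the length did not follow the level alone. With the deposited lengths as offsets the gene was still called at D16 (padj = 0.0151). Whether the shift between forms has a part in the AZU1 difference was not tested, and the gene's values are treated as uncertain.

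**Figure D2:**
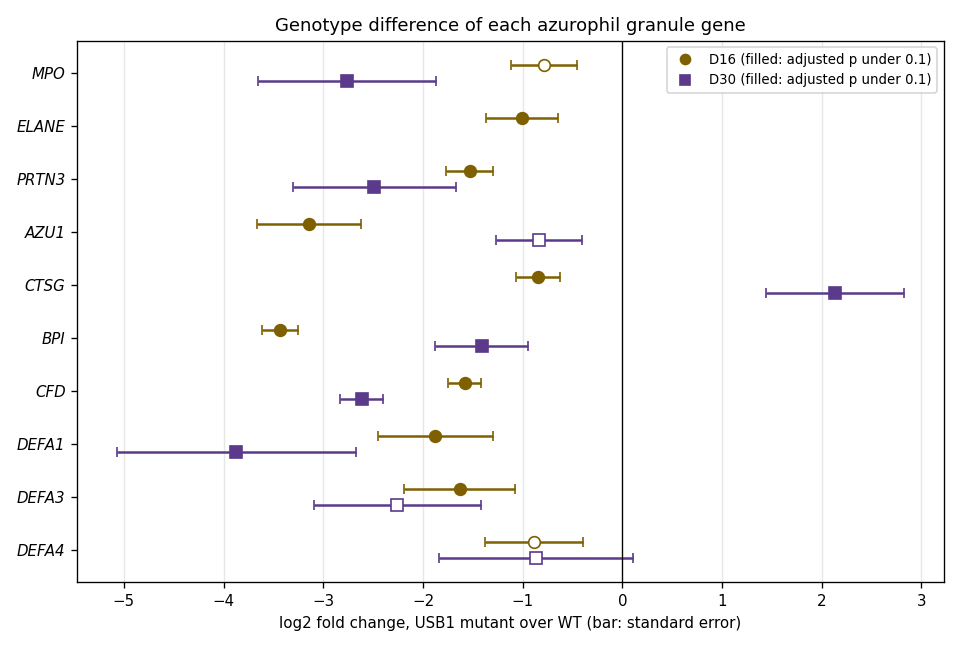
Log2 fold change of USB1 mutant over WT with its standard error for each gene at D16 (circles) and D30 (squares); filled symbols have an adjusted p under 0.1. At D16 every point lies below 0 and BPI and AZU1 lie lowest, while at D30 CTSG stands alone above 0 at 2.13.

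The difference of MPO at D16 did not pass the test. Its 3 WT libraries lay at 3048, 4626 and 9216 CPM and the mutant libraries at 2589, 3441 and 3996 CPM (log2 fold change -0.78 ± 0.33, padj = 0.118). The WT libraries differed among themselves by more than the genotypes did, and 2 mutant libraries lay above the lowest WT one. Without WT replicate 1 the gene was called (padj = 0.0270), as it was with the block, with no count filter (0.0292) and with TMM computed without the members, globins and 20 most abundant genes (0.0936).

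The defensin genes varied as widely among WT libraries. DEFA1 was at 16.6, 25.2 and 72.6 CPM in WT and 4.55, 6.75 and 20.4 CPM in mutant progenitors (log2 fold change -1.88 ± 0.57, padj = 0.0418). DEFA3 was at 14.2, 27.0 and 73.5 CPM in WT and 5.93, 9.58 and 22.2 CPM in mutant progenitors (-1.63 ± 0.55, padj = 0.0602). WT replicate 3 and mutant replicate 3 were the highest of their group for both, and the genotypes overlapped. The sum of DEFA1, DEFA1B and DEFA3 was lower as well (-1.71 ± 0.55, padj = 0.0517). DEFA1B had 0 counts in 16 of 18 libraries. DEFA4, the gene of the defensin that also inhibits corticotropin, was at 3.01, 11.4 and 16.5 CPM in WT and 3.00, 8.24 and 6.14 CPM in mutant progenitors (-0.89 ± 0.49, padj = 0.227). DEFA1 and DEFA3 were not called without WT replicate 3 (padj = 0.116 and 0.199), without either of mutant replicates 1 and 2, in DESeq2 or in the fit over 18 libraries.

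At D30, 9 members could be tested, and 5 were lower and 1 was higher in mutant cells. Over all 14263 genes tested, 9.75% were called lower and 10.8% higher. The median log2 fold change was -2.26 over the 9 members and -0.01 over all genes. BPI, CFD and DEFA1 did not overlap between the genotypes, against 35.7% of all genes. The calls lay close to the threshold for every member but CFD, so that at an adjusted p under 0.05 CFD alone was called, and the number lower ran from 1 to 6 when single libraries were left out: it was 1 without WT replicate 3, 1 without mutant replicate 2, 2 without mutant replicate 1 and 3 without WT replicate 1. Common biological variation was also larger at D30 (coefficient 0.223) than at D16 (0.17).

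CFD was again the steadiest. It was at 77.3, 75.1 and 105 CPM in WT and 11.2, 14.3 and 17.1 CPM in mutant cells (log2 fold change -2.61 ± 0.21, padj = 0.00133), and it was called in all 17 alternatives. BPI was at 37.6, 54.1 and 102 CPM in WT and 10.8, 26.8 and 36.5 CPM in mutant cells (-1.41 ± 0.46, padj = 0.0804). The lowest WT library of BPI lay just above the highest mutant one.

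MPO and PRTN3 were low and uneven in mature cells. MPO was at 335, 73.8 and 433 CPM in WT and 6.39, 29.0 and 93.0 CPM in mutant cells (log2 fold change -2.76 ± 0.89, padj = 0.0756). PRTN3 was at 32.8, 13.1 and 52.0 CPM in WT and 0.91, 4.08 and 15.2 CPM in mutant cells (-2.49 ± 0.81, padj = 0.0795). In both genes WT replicate 2 was the lowest WT library and mutant replicate 3, the shallowest library of all, was the highest mutant one, and these 2 overlapped. ELANE was nearly absent from the mutant cells, with 0, 3 and 1 counts, against 134, 7 and 50 counts in WT, and it fell below the count filter. Without that filter it was called lower (log2 fold change -5.44 ± 1.14, padj = 0.00542), as was DEFA3, so that 7 members were then lower.

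DEFA1 was at 11.7, 12.4 and 40.8 CPM in WT and 0.20, 0 and 6.66 CPM in mutant cells at D30 (log2 fold change -3.87 ± 1.20, padj = 0.0678), the mutant values resting on 2, 0 and 25 counts. DEFA3 was at 15.5, 9.62 and 43.1 CPM in WT and 0.61, 4.25 and 11.2 CPM in mutant cells (-2.26 ± 0.84, padj = 0.113). Their sum with DEFA1B was called (-2.83 ± 0.87, padj = 0.0667) and did not overlap. DEFA4 (-0.87 ± 0.97, padj = 0.601) and AZU1 (-0.83 ± 0.43, padj = 0.237) were not called. AZU1 was at 40.1, 15.4 and 11.5 CPM in WT and 12.3, 11.2 and 14.1 CPM in mutant cells, a narrower gap than at D16.

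CTSG alone was higher in mutant cells at D30. It was at 23.7, 7.19 and 31.3 CPM in WT and 21.8, 94.0 and 155 CPM in mutant cells (log2 fold change 2.13 ± 0.69, padj = 0.0781). Mutant replicate 1 lay within the WT range and the other 2 lay above it. The call was lost when any library but mutant replicate 1 was left out (padj 0.116 to 0.210) and in limma-voom (0.121), with the direction kept.

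Mast cell and basophil markers moved with CTSG at D30. Of 7 such genes, 5 were higher and 0 lower in mutant cells, where 10.8% and 9.75% of all genes were. Their median log2 fold change was 2.37. TPSB2, a mast cell tryptase with near-identical copies, was at 14.1 ± 8.3 CPM in WT and 269 ± 85 CPM in mutant cells (4.29 ± 0.45, padj = 0.00196), KIT, the stem cell factor receptor, at 26.0 ± 15.1 and 439 ± 191 CPM (4.11 ± 0.53, padj = 0.00386), and CPA3, mast cell carboxypeptidase, at 33.4 ± 9.2 and 172 ± 112 CPM (2.37 ± 0.54, padj = 0.0250). The 7 genes summed to 155 to 241 CPM in WT and 729 to 1629 CPM in mutant cells, and 0 of them lacked counts in every library of a D30 group. Within each genotype at D30 the library with the least CTSG also had the smallest sum. At D16, 3 of the 7 were higher and 2 lower, where 13.1% and 15.3% of all genes were. The sum was then 777 to 1180 CPM in WT and 839 to 1249 CPM in mutant progenitors. The part of these cells in the CTSG difference was not tested, and in bulk RNA fewer cells of a type and less RNA per cell cannot be told apart, here or for any other member.

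**Figure D3:**
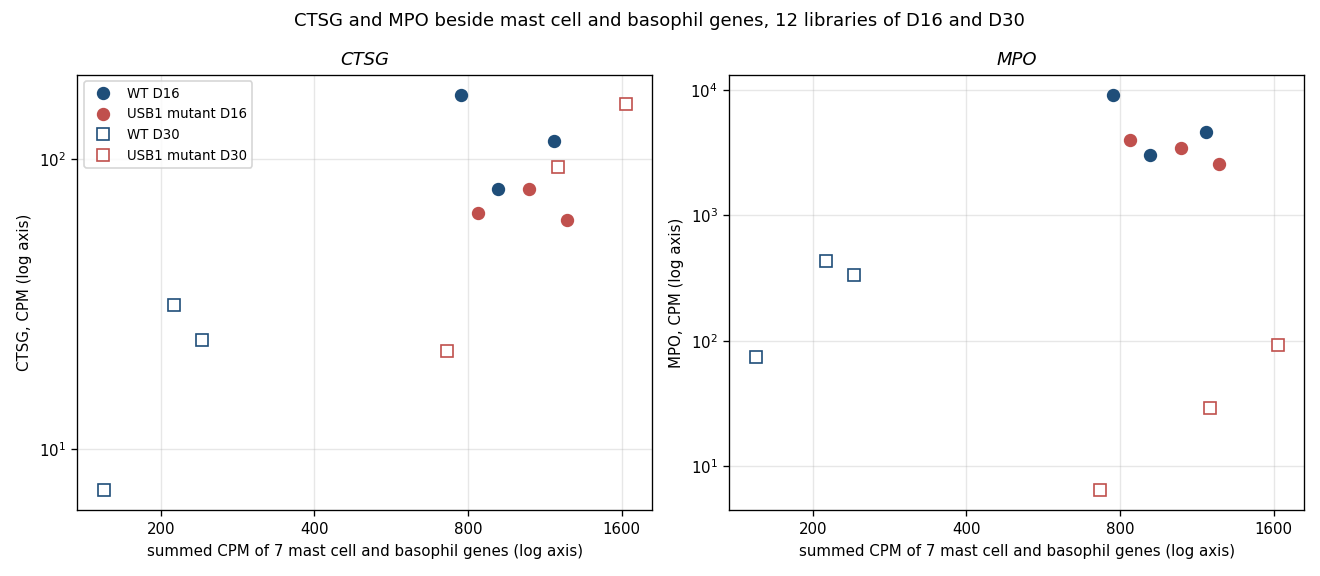
CTSG (left) and MPO (right) in CPM against the summed CPM of 7 mast cell and basophil genes in the 12 libraries of D16 (filled circles) and D30 (open squares), WT in blue and USB1 mutant in red, on log axes. At D30 the mutant libraries have sums of 729 to 1629 CPM against 155 to 241 CPM in WT; their CTSG is level with or above WT, and 2 of the 3 lie below every WT library in MPO.

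From D0 to D16 all 10 members rose in both genotypes, where 37.0% of all genes rose in WT and 36.9% in mutant cells. Most had next to no counts at D0, so the size of the rise is a bound at best. Set against 3 counts over the D0 group as the floor, DEFA1 rose at least 477-fold and DEFA4 at least 129-fold in WT, and DEFA3 rose at least 478-fold in WT and at least 149-fold in mutant cells. AZU1 and CFD, which had counts at D0, rose 160-fold and 114-fold in WT and 18.1-fold and 26.2-fold in mutant cells. For these 2 the rise was smaller in mutant cells by a log2 of 3.14 ± 0.93 (AZU1, interaction -3.14, padj = 0.0658) and 2.12 ± 0.34 (CFD, interaction -2.12, padj = 0.00293), and 3.75% of all genes had a lower interaction call. MPO, with 6 to 44 counts in each D0 library, was not called (interaction -1.88 ± 1.47, padj = 0.536). The other 7 interactions were not called either, and had standard errors of 2.45 or more, with few or no counts at D0. AZU1 lost its call without replicate 1 (padj = 0.148), without replicate 2 (0.488), in limma-voom (0.139) and with length offsets (0.166). The rise of AZU1 itself depended on its transcript length. With length offsets it was a log2 of 8.31 in WT and 4.87 in mutant cells, against 7.32 and 4.18 without them. CFD kept its call in all 13 alternatives.

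From D16 to D30, 8 members fell in WT, where 35.1% of all genes fell. PRTN3 (23.2-fold), MPO (20.1-fold), ELANE (14.5-fold) and AZU1 (13.0-fold) fell most, CTSG 5.95-fold, DEFA4 4.04-fold, CFD 3.23-fold and BPI 2.81-fold. DEFA1 (log2 fold change -0.83 ± 0.77, padj = 0.364) and DEFA3 (-0.77 ± 0.73, padj = 0.382) were not called, and their D30 libraries overlapped those of D16. DEFA4 was not called without replicate 2 (padj = 0.241) or in DESeq2 (0.104). In mutant cells 7 members fell, again against 35.1% of all genes. MPO fell 82.4-fold, PRTN3 50-fold, DEFA1 7.99-fold, CFD 6.82-fold, DEFA4 4.41-fold and AZU1 2.68-fold, and ELANE fell to 0 to 3 counts a library. CTSG (0.37 ± 0.50, padj = 0.529) and BPI (0.47 ± 0.36, padj = 0.261) were not called. AZU1 lost its call without replicate 3 (0.358) and in limma-voom (0.109). DEFA1 (0.155) and DEFA4 (0.386) lost theirs without replicate 2, and also in DESeq2 (0.199 and 0.159).

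The genotype difference itself changed between D16 and D30 for 5 members, 3 upward and 2 downward, where 10.3% and 10.2% of all genes did so. CTSG moved from lower to higher in mutant cells (interaction 2.94 ± 0.72, padj = 0.0113). BPI stayed lower in mutant cells but by less (1.96 ± 0.49, padj = 0.0127), and AZU1, called lower at D16 and not called at D30, also moved up (2.28 ± 0.71, padj = 0.0392). CFD became lower still (-1.08 ± 0.29, padj = 0.0174), as did ELANE (-4.38 ± 1.61, padj = 0.0805), whose mutant D30 counts were 0 to 3. The calls of CTSG (0.156), BPI (0.205), CFD (0.136) and AZU1 (0.314) were lost without replicate 2 of every group, and that of AZU1 also with length offsets (0.209). That of ELANE was lost without replicate 1 (0.522), without replicate 3 (0.162), in limma-voom (0.387) and with the replicate block (0.103). For the remaining 5 members the change was not called, and MPO, for example, had -2.04 ± 0.96 (padj = 0.169). Each day was deposited as its own table, so day and table cannot be told apart.

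The make-up of the azurophil transcripts differed accordingly. MPO made up 41.7% of the summed TPM in WT progenitors (38.0 to 48.0%) and 58.8% in mutant progenitors (56.6 to 60.7%), without overlap, and AZU1 8.9% (8.0 to 10.5%) against 1.7% (0.5 to 4.0%). CTSG held 4.19% (3.87 to 4.35%) in WT and 5.41% (4.36 to 6.27%) in mutant progenitors, just without overlap. At D30 it held 5.4% in WT (3.7 to 7.0%) and 54.5% in mutant cells (46.0 to 64.0%). Put as a ratio of TPM within a library, CTSG over MPO was 0.0806 to 0.114 in WT and 0.0736 to 0.103 in mutant progenitors, 0.289 to 0.375 in WT D30 cells and 6.54 to 12.9 in mutant D30 cells. These ratios do not depend on library scaling. No test was made of them.

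**Figure D4:**
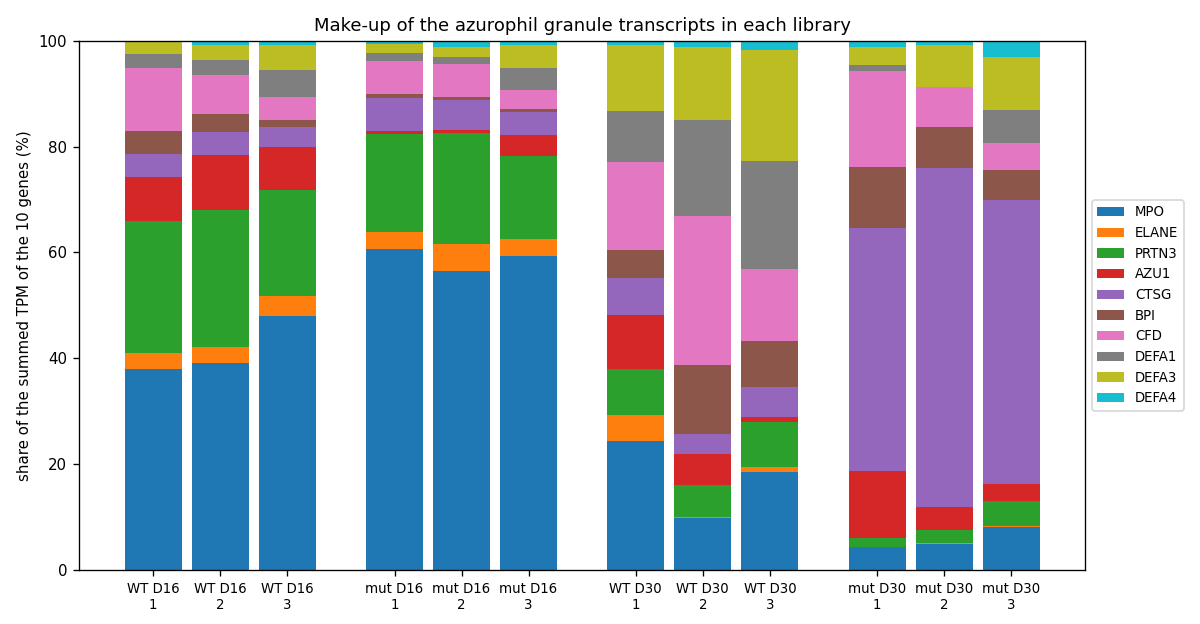
Share of the summed TPM of the 10 genes taken by each gene, in percent, as stacked bars for each library of D16 and D30. MPO takes 38.0 to 60.7% of every D16 library, and CTSG takes 46.0 to 64.0% of the mutant D30 libraries against 3.7 to 7.0% of the WT ones.

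The genes around ELANE on chromosome 19 did not follow the members as a block. Of 16 other genes that start within 200 kb of ELANE, 13 could be tested at D16. Of these, 3 were lower and 0 higher in mutant progenitors, where 15.3% and 13.1% of all genes were. Their median log2 fold change was -0.25. The lower ones were PRSS57 (-0.97 ± 0.16, padj = 0.00215), which encodes a serine protease also stored in azurophil granules, CNN2 (-0.54 ± 0.14) and R3HDM4 (-0.37 ± 0.13). PRSS57 lay at 364 ± 23 CPM in WT and 191 ± 38 CPM in mutant progenitors. At D30, 14 of the 16 were tested, with 2 higher (R3HDM4 and KISS1R), 1 lower (FSTL3) and a median of 0.07. Of all genes tested at D30, 10.8% were called higher and 9.75% lower. R3HDM4 starts 45.5 kb from ELANE and was lower at D16 but higher at D30 (1.09 ± 0.17). The 4 members themselves had log2 fold changes of -1.0 to -3.15 at D16.

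**Figure D5:**
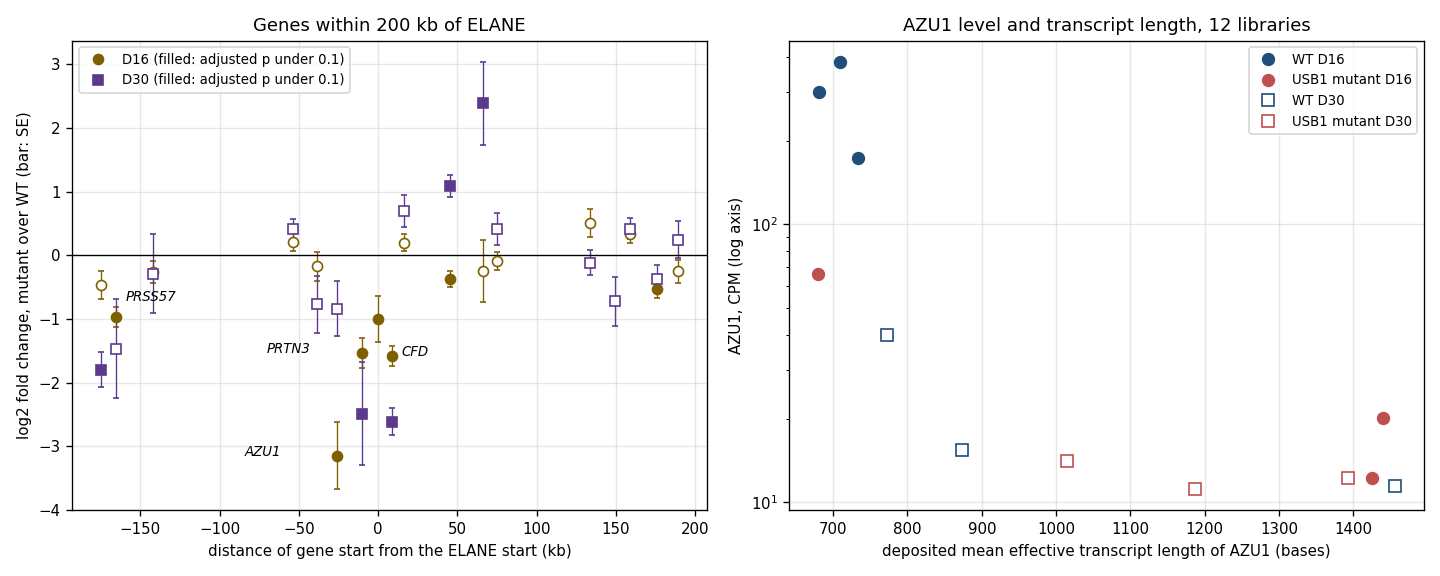
Left, log2 fold change of mutant over WT (± SE) of the genes that start within 200 kb of ELANE, by distance of their start in kb, at D16 (circles) and D30 (squares), filled where the adjusted p is under 0.1; AZU1, PRTN3 and CFD lie within 25.9 kb of ELANE and, at D16, below the other genes plotted. Right, AZU1 level in CPM (log axis) against its deposited effective transcript length in 12 libraries; the 4 libraries with lengths of 1393 to 1456 bases all have at most 20 CPM.

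The transcription factors known to act in promyelocytes were lower in most cases at D16. Of 8 tested, 6 were lower (CEBPE, MYB, GFI1, SPI1, RUNX1 and CEBPA), 1 was higher (IRF8) and CBFB was not called, with a median log2 fold change of -0.60. For this list and those below, 15.3% of all genes tested were called lower and 13.1% higher at D16. At D30 these shares were 9.75% and 10.8%. CEBPE, a factor needed for late granule genes, fell most, from 103 ± 10 CPM in WT to 20.3 ± 6.1 CPM in mutant progenitors (log2 fold change -2.38 ± 0.20, padj = 0.00012). MYB, which drives ELANE and MPO in progenitors, fell by a log2 of 0.81 ± 0.13 (351 ± 28 to 206 ± 9 CPM) and CEBPA by 0.54 ± 0.15 (299 ± 36 to 212 ± 25 CPM). IRF8, a factor of the monocyte branch, rose from 30.0 ± 16.5 to 87.6 ± 28.9 CPM (1.5 ± 0.33, padj = 0.00988). At D30 CEBPA was lower (-0.68 ± 0.16, padj = 0.0301) and GFI1 higher (1.03 ± 0.32, padj = 0.0692), and the other 6 were not called. The study itself singled out CEBPA, CEBPE and RUNX1 in these cells, so their direction is not independent evidence.

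Genes that process or pack granule proteins fell in part. Of 8 tested at D16, 4 were lower and 0 higher, with a median log2 fold change of -0.44. SRGN, the core protein of the proteoglycan that holds granule proteases, fell from 2241 ± 246 to 913 ± 81 CPM (log2 fold change -1.33 ± 0.15, padj = 0.000354). LYST (-0.98 ± 0.13), the granule-size regulator changed in Chediak-Higashi syndrome, and the chaperones CALR (-0.88 ± 0.15) and CANX (-0.73 ± 0.16), which assist MPO folding, fell too. CTSC, the protease that removes the propeptide of elastase, proteinase 3 and cathepsin G, was at 537 ± 28 CPM in WT and 583 ± 37 CPM in mutant progenitors (0.08 ± 0.13, padj = 0.693) and was not called. AP3B1, AP3D1 and VPS33B were not called either. At D30 LYST alone was lower (-1.49 ± 0.29, padj = 0.0142).

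Among the known inhibitors of granule and lysosomal proteases, 4 of 10 tested were lower and 1 higher at D16, where 15.3% and 13.1% of all genes were. With the replicate block 3 were higher and 6 lower, and the share of all genes in that fit is not given. The median log2 fold change was -0.45. CST7, cystatin F, an inhibitor of cysteine proteases and not of the serine proteases among the members, fell from 597 ± 76 to 85.3 ± 26.9 CPM (-2.85 ± 0.22, padj = 8.74e-05). SERPINB1, the main intracellular inhibitor of elastase, fell from 265 ± 51 to 118 ± 15 CPM (-1.20 ± 0.16, padj = 0.0009). A2M rose (1.29 ± 0.30, padj = 0.0134). At D30, 3 of 9 were lower, SERPINB8, A2M and SERPINB1. A2M, a secreted inhibitor that macrophages make, was thus higher at D16 and lower at D30 in mutant cells.

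Other contents of azurophil granules, most of them shared with lysosomes, were lower to a smaller degree. Of 17 tested at D16, 9 were lower and 0 higher, with a median log2 fold change of -0.66. The lower ones included ARSB (-1.28 ± 0.18), PRSS57 (-0.97 ± 0.16) and GUSB (-0.74 ± 0.13). At D30, 7 of 18 were lower and 0 higher (median -0.42), among them GAA (-0.90 ± 0.18). Their summed level rose from D16 to D30 where that of the members fell, from 5483 to 5848 CPM to 22623 to 25473 CPM in WT. PRSS57 did not share this rise, and lay at 364 ± 23 CPM in WT at D16 and 4.67 ± 5.10 CPM in WT at D30.

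Proteins of the later, specific granules were scarce at D16. Their 8 genes summed to 24 to 32 CPM in WT and 12 to 18 CPM in mutant progenitors, and of the 6 tested 5 were lower and 1 higher (median log2 fold change -1.04). The lower ones included TCN1 (6.64 ± 1.43 to 2.15 ± 0.74 CPM) and CEACAM8 (4.55 ± 1.06 to 1.77 ± 0.42 CPM). At D30 they summed to 74 to 152 CPM in WT and 19 to 50 CPM in mutant cells, and 4 of 6 were lower (median -1.67). LTF, lactoferrin, was at 41.4 ± 23.2 CPM in WT and 3.45 ± 2.21 CPM in mutant cells (-3.59 ± 0.60, padj = 0.00811), and MMP8 at 18.8 ± 5.5 and 4.79 ± 1.30 CPM (-1.99 ± 0.31, padj = 0.00647). OLFM4 had 0 counts in every mutant library and 3.73 to 7.12 CPM in WT.

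Markers of other blood cells moved beside the members. The counts stand against 15.3% of all genes lower and 13.1% higher at D16, and 9.75% lower and 10.8% higher at D30. The 6 eosinophil granule genes were far more abundant at D16 than the azurophil genes, with 34584 to 63599 CPM in WT and 6621 to 10474 CPM in mutant progenitors, and 6 of 6 were lower in mutant cells (median log2 fold change -2.63), PRG2 from 26400 ± 7548 to 4579 ± 1104 CPM and EPX, the eosinophil relative of MPO, from 12242 ± 4339 to 1522 ± 239 CPM. At D30 0 of the 6 were called. Of 10 monocyte and macrophage genes, 6 were higher and 1 lower at D16, and 7 lower and 0 higher at D30. Erythroid genes were higher in mutant cells at D30 for 7 of 8, and summed to 55690 to 94333 CPM there against 13195 to 17624 CPM in WT. PTPRC, which encodes the blood cell marker CD45, lay at 590 to 820 CPM in WT and 419 to 581 CPM in mutant progenitors (-0.57 ± 0.17, padj = 0.0389), and 2 of 5 blood cell and progenitor genes were lower and 1 higher. Of 5 megakaryocyte genes 4 were higher at D16, as were 4 of 5 endothelial genes, with 0 lower in either list. The 5 pluripotency genes summed to 39.0 to 43.0 CPM in WT and 56.6 to 86.6 CPM in mutant progenitors, against 3573 to 4149 CPM at D0. Of the 4 tested at D16, 1 was higher and 0 lower. The part of these shifts in the member differences was not tested.

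Across the 12 libraries of D16 and D30, MPO, ELANE and PRTN3 had the most similar patterns among the members. Pearson's r of log2 CPM was 0.99 for MPO with PRTN3 and 0.97 for MPO with ELANE, and the lowest r between members was 0.11, for CTSG with DEFA1. These libraries fall into groups by day and genotype, so r describes mainly the group levels. Of 12611 genes compared, the most similar to MPO was NKG7, a granule membrane protein gene (r = 0.98), to ELANE MGST1 (0.97), to PRTN3 AGPAT2 (0.98), to AZU1 CRELD2 (0.96), to CFD CD302 (0.98) and to BPI BANK1 (0.97). SLPI, the gene of an elastase inhibitor, was among the 3 most similar to ELANE (0.96). The most similar to CTSG was SIGLEC8 (r = 0.95), a receptor of eosinophils and mast cells, at 28.4 and 21.2 CPM in WT and mutant progenitors and 8.57 and 25.5 CPM at D30.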

How the data were processed

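RNA of 18 libraries, 3 WT and 3 USB1 mutant at each of D0, D16 and D30, was sequenced from rRNA-depleted, strand-specific libraries. Per the submitters' processing notes and the study's methods, Trimmomatic 0.36 removed adapters and low-quality bases, Salmon 0.13.1 estimated transcript levels on the Ensembl GRCh38 transcriptome, and DESeq2, whose version is not given in the sources used here, tested genes. The authors deposited, for each day, 1 table with the expected count, the TPM and the effective transcript length of each gene. TPM summed to 979065 to 985035 per library. Replicates were not pooled, and 0 sample columns fell outside the listed samples. Total counts ran from 4125125 (mutant D30 replicate 3) to 19368927, with 6.38 to 16.9% of them in the 20 most abundant genes, so that depth limits the members mostly at D0 and in mutant D30 cells. The floors cover counting error only, while the ± values also hold the spread between libraries.

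Expected counts were rounded to whole numbers. Symbols and coordinates came from GENCODE v44 (GRCh38), which matched 35051 of 35168 identifiers, and the 117 others held 0.238% of counts and stayed in the tests. Each day's genotypes were compared with edgeR 4.0.16 (R 4.3.3, filterByExpr, TMM, quasi-likelihood test, Benjamini-Hochberg over all genes, called at adjusted p under 0.1). Changes between days and genotype-by-day interactions came from 1 fit over 18 libraries with 6 group means. Printed CPM values use TMM over the 18 libraries, and tests use the scaling of their own fit. The scripts were tested on simulated data. Nothing states whether replicates were separate cultures, and p-values therefore reflect only how far these samples differ, which may be technical. No pair of replicates agreed within sampling noise.

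No label pairs the libraries. Same-numbered WT and mutant libraries tended to deviate together at D0 (correlation of deviations from group means 0.332, 0.153 and 0.232) and D16 (0.119, 0.253 and 0.434), as a hint from the data. At D30 they did not (0.142, -0.115 and 0.352). Pairs of unlike number ran from -0.261 to 0.101 at D0, -0.356 to 0.126 at D16 and -0.419 to 0.290 at D30. Because deviations were taken from group means of 3 libraries, part of the contrast between like and unlike pairs is built in. A fit with the replicate number as a block is quoted at D16 where it changes a call, and a pairing is not established.

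Members, the 14 lists with 115 entries and the rules were chosen with earlier results of these data known. Named genes are the members, USB1, up to 4 called genes of the smallest adjusted p per list (any gene for transcription factors and processing), neighbours within 200 kb of ELANE and the 3 genes most like each member by Pearson's r, over genes with at least 5 CPM. Alternatives were RLE scaling, TMM without the members, globins and 20 most abundant genes, no filter, DESeq2 1.42.0, a stricter filter (3 libraries with 5 CPM or more), length offsets, limma-voom (limma 3.58.1), an adjusted p under 0.05, the block, the fit over 18 libraries and each library left out. The sum of DEFA1, DEFA1B and DEFA3 was added after seeing the data. 1 gene of the lists is not reported here by name. Near-identical copies and overlapping genes are uncertain, since the use of strand in quantification is not stated.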

Additional observations from a re-analysis of the deposited data

Results flagged for a closer look

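These results were singled out because the genotype difference changed between 2 days by a test of the change itself, the interaction in edgeR's fit over 18 libraries with Benjamini-Hochberg adjustment over all 16829 genes tested. Between D0 and D16 the mutant over WT difference moved down for AZU1 by an interaction of -3.14 (log2, padj = 0.0658), where the D0 values were 17 to 30 counts per library, and for CFD by -2.12 (padj = 0.00293), where they were 25 to 58 counts. Between D16 and D30 it moved up for CTSG by 2.94 (padj = 0.0113), which went from lower to higher in mutant cells, for BPI by 1.96 (padj = 0.0127) and for AZU1 by 2.28 (padj = 0.0392), whose means were lower in mutant cells on either day. It moved down for ELANE by -4.38 (padj = 0.0805), with 0 to 3 counts in the mutant D30 libraries, and for CFD by -1.08 (padj = 0.0174). Over all genes tested 3.75% had a lower call between D0 and D16, and 10.3% a higher and 10.2% a lower call between D16 and D30. The deposited AZU1 transcript length also differed between libraries, and its part in these values was not tested. The CTSG value goes with a rise of mast cell and basophil genes, whose part was not tested.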

How the results depend on the processing

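The call at D16 held in all 17 alternatives for PRTN3, AZU1, BPI and CFD, and at D30 for CFD. The number of members lower at D16 was 8, and was 4 in the fit over 18 libraries, 5 in DESeq2 and 4 to 10 with single libraries left out (4 without mutant replicate 1, 5 without WT replicate 3). At D30 it was 5, and was 3 in DESeq2, 1 at an adjusted p under 0.05, 7 with no count filter (9 at D16) and 1 to 6 with single libraries left out, and the 1 member higher became 0 in limma-voom, 0 at an adjusted p under 0.05 and 0 to 1 with single libraries left out. In mutant cells from D16 to D30 the number higher was 0 to 1 with a replicate number left out (BPI without replicate 1, padj = 0.0488). Lower interactions between D0 and D16 numbered 2, and 1 in limma-voom, with length offsets and at an adjusted p under 0.05, and 1 to 2 with a number left out. Between D16 and D30, higher interactions were 0 to 3 with a number left out (0 without replicate 2), and lower ones, 2 in number, were 1 at an adjusted p under 0.05 and 1 to 3 with a number left out. The ratio of summed levels ran from 0.404 to 0.605 at D16 and from 0.229 to 0.480 at D30 with single libraries left out. The cause of these changes was not tested. Values that changed sign were AZU1 at D0 (-0.0097 in limma-voom, -0.10 to 0.28 with single libraries left out, below 0 without WT replicate 1 at -0.06 and mutant replicates 1 and 2 at -0.10 and -0.07), DEFA4 at D30 (-2.50 to 0.12 with single libraries left out, above 0 without WT replicate 3), CTSG in mutant cells from D16 to D30 (-0.13 in limma-voom, -0.28 without replicate 3, up to 0.77 with another left out), the ELANE interaction between D0 and D16 (-3.35 to 1.76 with a number left out, above 0 without replicate 3) and the DEFA4 interaction between D16 and D30 (0.017 with TMM without members and abundant genes, 0.23 in DESeq2, 0.32 and 0.30 without replicates 1 and 2, -1.17 without replicate 3), none of them called. In the fit with a replicate block, members lower were 10 at D16 and 6 at D30, where DEFA3 was gained (padj = 0.0134); the block also gained DEFA3 from D16 to D30 in mutant cells (0.00953) and the D16 to D30 interactions of MPO (0.0406) and DEFA1 (0.0656), and lost that of ELANE (0.103). At D30 the samples share only a number, and no label pairs them on any day. The share of all genes called in the block fit is not given here. Depth limits the members at D0, where 8 could not be tested, and ELANE and DEFA1 in mutant D30 cells.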
